A study of Homo sapiens with 14 samples.

Results

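The genes for 5S ribosomal RNA and many of the genes for transfer RNA (tRNA) lie in arrays and clusters on chromosomes 1, 6 and 17, and the KMT2D peaks called over them are described here. KMT2D is a histone methyltransferase that acts mainly at enhancers. Member peaks were chosen by position alone: the summit had to lie in 1 of 6 windows of GRCh37 coordinates. These windows were 228.64 to 228.79 Mb of chromosome 1 for the 5S array, 161.36 to 161.45 Mb of chromosome 1 for the tRNA cluster called 1q here, and 8.06 to 8.13 Mb of chromosome 17 for the cluster called 17p. On chromosome 6 they were 26.285 to 26.83 Mb (6p-a), 27.17 to 27.775 Mb (6p-b) and 28.4 to 28.95 Mb (6p-c). The windows held 89 of the 13808 peaks of the list (0.645%), of which 28 were on the 5S array and 61 on the tRNA clusters. The tRNA peaks were 16 on 1q, 13 on 6p-a, 19 on 6p-b, 10 on 6p-c and 3 on 17p.

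The list came from 1 library, an anti-KMT2D ChIP of SCC23, a cell line long established from a squamous cell carcinoma of the head and neck (HNSCC), labelled wild type for KMT2D. The cells had been kept without glucose for 6 h. The labels name 14 libraries, among them an input and histone mark libraries of KMT2D-WT and KMT2D-KO cells, which were not analysed here. There was no replicate, so each value below describes this library, and intervals cover counting error only.

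Both gene families are transcribed by RNA polymerase III, which uses promoters inside the transcribed sequence. At 5S genes the zinc finger protein TFIIIA binds the internal control region (box A, the intermediate element and box C) and recruits TFIIIC and then TFIIIB. At tRNA genes TFIIIC binds the A and B boxes directly. KMT2D is known from enhancers and promoters of genes transcribed by RNA polymerase II, and the 6p clusters share their stretch of chromosome 6 with many histone genes, which are of that kind.

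In GRCh38, the build of the reference at hand, GENCODE v44 has 17 genes named RNA5S1 to RNA5S17 on the minus strand of chromosome 1. Of these, 16 are identical in sequence. All 17 genes are 119 nt long, and neighbouring genes start a median of 2241 bp apart (2215 to 2242 bp), so that the array is a row of nearly equal repeats.

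The 1q cluster is a repeat of another kind. Between CFAP126 and FCGR2A, which lie on either side of it, the RefSeq table of GRCh38 has 27 tRNA genes, with glycine, glutamate, aspartate and leucine genes in a recurring order. There are 5 genes each for Gly-GCC, Gly-TCC, Asp-GTC and Leu-CAG and 4 for Glu-CTC. Stretches of 31 bp recurred there most often at a shift of 7381 bp. Words as long as a short read were seldom unique within the 5S array. Of all 50-bp words, the read length on the study's reporting form, 1.90% occurred once in the 5S array, and 77.4% once in the 137553 bp between CFAP126 and FCGR2A. The second stretch was not cut to the repeats, so the 2 shares do not compare the copies of 1q with those of 5S. The authors kept uniquely mapped reads. The part of read placement among copies in the values below was not tested.

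On the 5S array, 27 of the 28 peaks lay together in 37.186 kb, at chr1:228745144-228782329, and covered 55.8% of it. This stretch is as long as 16.6 repeats of 2241 bp, where GRCh38 has 17 genes over 35891 bp. No annotation of GRCh37 was at hand, so the peaks were not joined to single genes. The other peak lay 99.967 kb before the next one, at chr1:228645402-228645964, with a fold enrichment of 4.39. Fold enrichment here is the authors' ratio of scaled ChIP coverage at the summit to the local background, with 1 added to both.

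Enrichment on the 5S array was modest and rather even. Fold enrichment ran from 2.01 to 5.28 with a median of 3.45 (interquartile range 2.66 to 4.15), against a median of 3.93 in the whole list. Of the 28 peaks, 12 were above the list's median, and the highest ranked 3638th in the list, with 26.3% of peaks above it. The window with the densest peaks thus had a lower highest fold than 4 of the other windows.

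The 5S peaks nevertheless rested on many fragments. A median of 47.5 ChIP fragments, rebuilt from the authors' values, lay over the summit, against 25 in the whole list. The local background, rebuilt in the same way from the control the authors used, was also high, with a median of 3.84 times the genome-wide level (interquartile range 3.26 to 4.56) against 1.16 in the whole list. A background called raised, meaning 2 times the genome-wide level or more, was found at 27 of 28 peaks (96.4%, 95% Wilson interval 82.3 to 99.4%), where the whole list had 18.6%. The exception was the peak apart from the others, at 1.83 times. At the median 5S peak, 11.1 fragments were expected from the background, where the genome-wide level gives 2.88. ChIP and control fragments were thus both raised along the array, and the fold enrichment is what remained of their ratio.

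**Figure D1:**
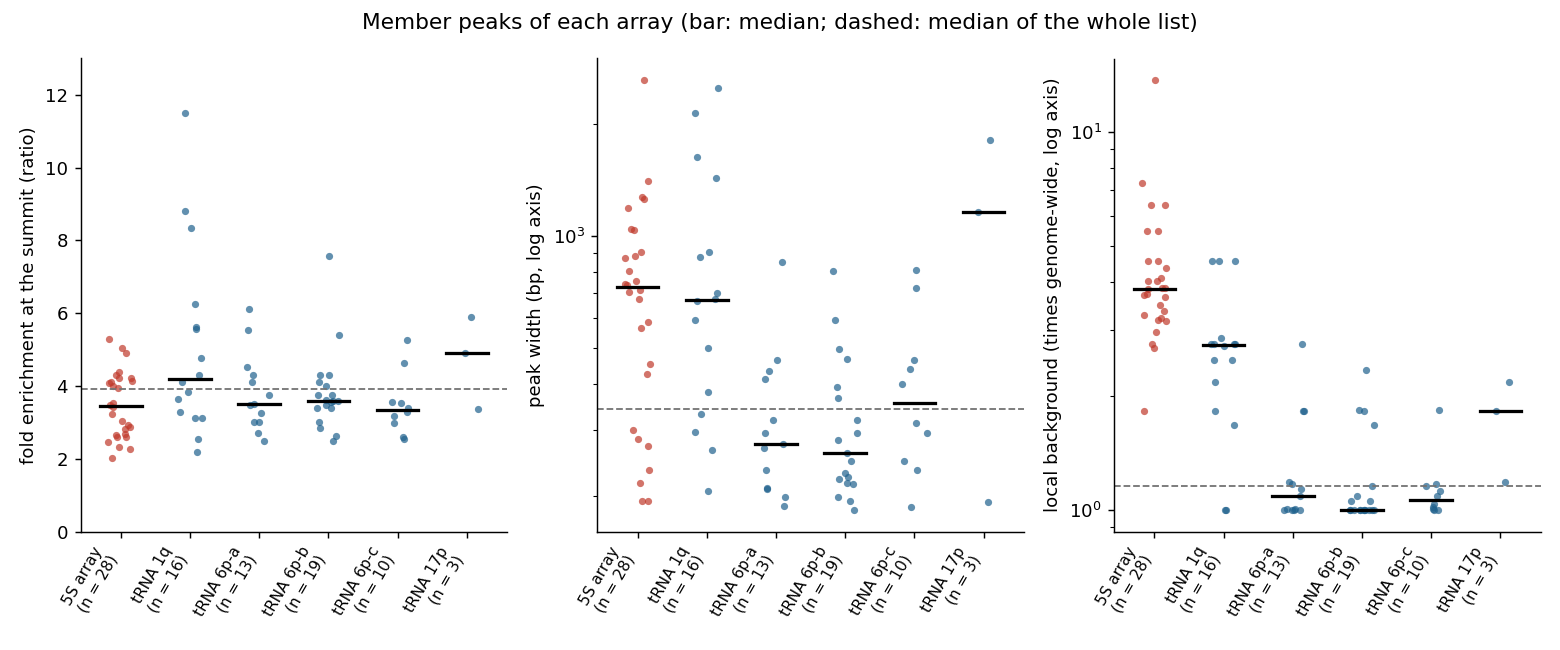
Fold enrichment (left), peak width in bp (middle, log axis) and local background in multiples of the genome-wide level (right, log axis) of the 89 member peaks, 1 point a peak, with a bar at each median and a dashed line at the median of the whole list. The 5S peaks have the highest backgrounds, up to 13.7, while the highest folds, up to 11.5, lie in the 1q cluster.

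The strongest 5S peak, at chr1:228781075-228782329, was the last of the array, with a fold of 5.28 and 52 fragments where 7.71 were expected. The next, at chr1:228756630-228757372, had a fold of 5.04 and 90 fragments. Another, at chr1:228773889-228775292, had a fold of 4.92, again with 52 fragments. The peak with most fragments was not among these: at chr1:228758145-228758360, 95 fragments lay where 39.4 were expected, over a background 13.7 times genome-wide, so that the fold was 2.32. The weakest peak, at chr1:228767207-228767793, had a fold of 2.01 over a background of 7.30. The widest peak spanned 2620 bp at chr1:228777271-228779890, longer than 1 repeat, with a fold of 3.48.

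Within the 5S core, as the 27 peaks are called below, many summits recurred at a common place of the repeat. When summit positions were folded on 2241 bp, 12 of 27 fell within 100 bp of a common place (place 1 of the plots), each in a different repeat, and 9 of the 11 distances between neighbours among them were within 100 bp of the repeat length (median 2255 bp). This place was found on the same summits, so its count is a description. Its fold enrichments had a median of 4.10 (3.03 to 5.28), and the q-value was 0.01 or lower at all 12 peaks. Their fragments lay between 44 and 61, with a mean of 52.0 ± 4.79 (SD over the 12 repeats where a summit was called). Counting error alone gives an SD of 7.21 at this mean, so the spread does not measure how alike the repeats are. Numbered from the first of these summits, repeats 1 to 15 had one of them except repeats 4, 13 and 14.

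The other summits of the core were weaker or fewer. Places 2 and 3 were taken in turn from the summits left over, so their being found does not show that summits recur there. Place 2 held 5 summits in 5 repeats, at −894 to −716 bp from the first summit of place 1, with folds of 2.59 to 3.23, and 1 of them had a q-value of at most 0.05. Place 3 held 3 summits, with folds of 2.60, 2.64 and 5.04, and the remaining 7 summits had folds of 2.01 to 4.21. The 90 fragments at place 3 and the 95 of the peak after it lay in repeat 4, which lacked a summit at place 1. Repeat 4 was thus unlike the repeats around it, where no summit had more than 53 fragments within 3 repeats on either side.

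**Figure D2:**
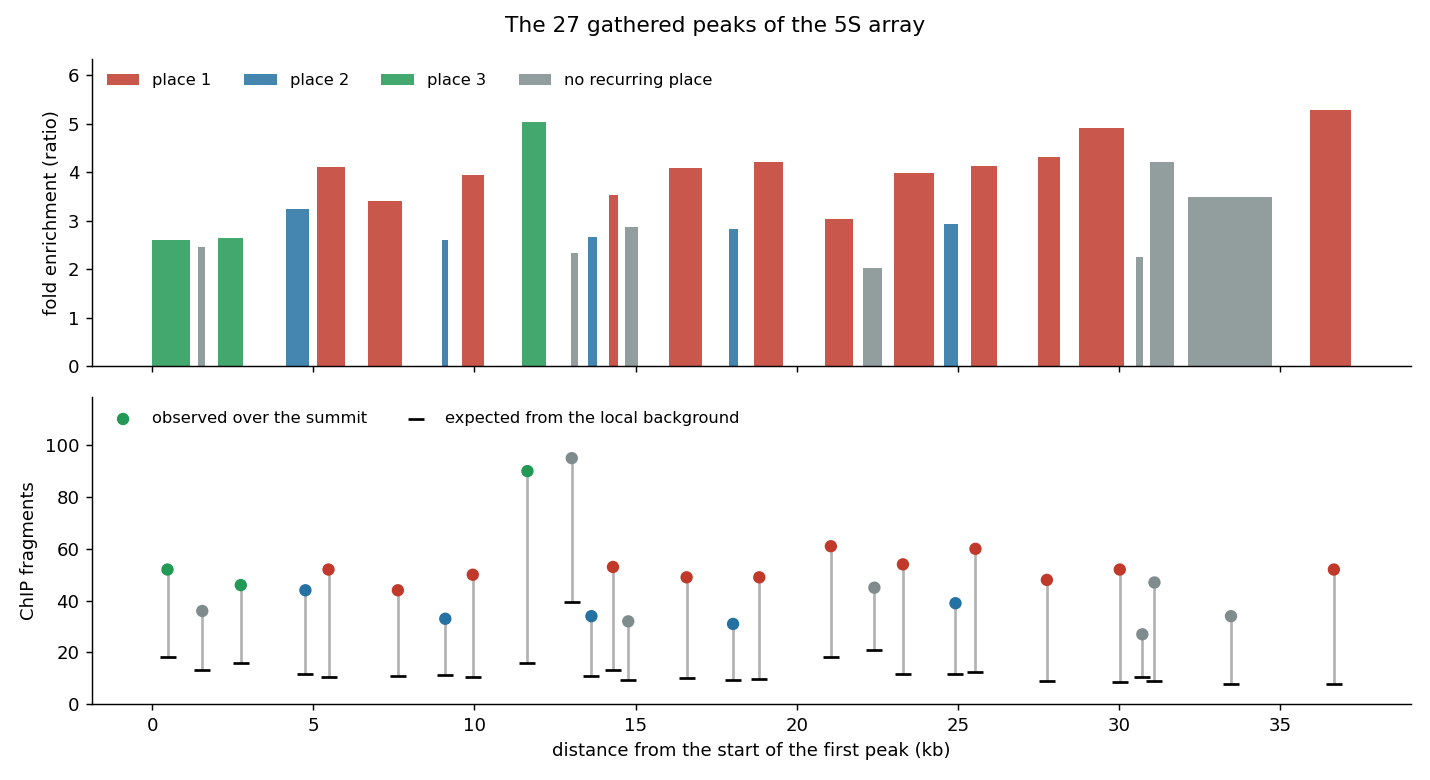
Upper panel, fold enrichment of each of the 27 gathered 5S peaks as a bar as wide as the peak, against distance in kb from the start of the first peak, coloured by its recurring place. Lower panel, ChIP fragments over each summit (points, in the same colours) and those expected from the local background (dashes). The 12 summits at place 1, each in a different repeat, have 44 to 61 fragments.

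The 1q tRNA cluster had a like density but higher peaks. Of its 16 peaks, 14 lay together in 31.563 kb, at chr1:161410371-161441933, as long as 4.28 repeats of 7381 bp, and covered 41.6% of it. Fold enrichment ran from 2.2 to 11.5 with a median of 4.20 (interquartile range 3.25 to 5.78). The highest, 11.5 at chr1:161438672-161441157, ranked 348th in the list, with 2.51% of peaks above it, and was the highest of all 89 members. The background was raised at 12 of the 16 peaks (75%, 50.5 to 89.8%), with a median of 2.73 times the genome-wide level. At the other 2 peaks of the window, outside the block, it was at the genome-wide level, and their folds were 4.11 and 4.29. The genome-wide level (1.00) is the lowest background that the rebuilding allows, here and below.

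These summits, too, recurred at places of the repeat, and with sharply different sizes. The 4 summits with most fragments, 1 in each of 4 successive repeats (place 2 of the plots), had 85, 90, 86 and 88 fragments, widths of 2142, 1430, 1631 and 2486 bp and folds of 8.34, 8.81, 5.62 and 11.5. They were 7425, 7426 and 7328 bp apart. Their fragments had an SD of 2.22, whereas their backgrounds ran from 1.83 to 4.56 times the genome-wide level. Counting error alone gives an SD of 9.34 for the fragments, so their spread does not measure how alike the repeats are. By arithmetic, the spread of the folds among these 4 lay mostly in the rebuilt background. Each of these backgrounds rests on few control fragments, and its counting error was not estimated. Place 1 held 4 summits with 49, 53, 55 and 56 fragments and folds of 4.77, 6.26, 3.66 and 5.58. Place 3 held 3 summits with 26, 28 and 28 fragments and folds of 3.84, 3.12 and 3.12. The 3 kinds of place did not overlap in fragments. Repeats without a called summit at a place do not enter these spreads. These places, too, were found on the same summits, so their counts are a description.

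**Figure D3:**
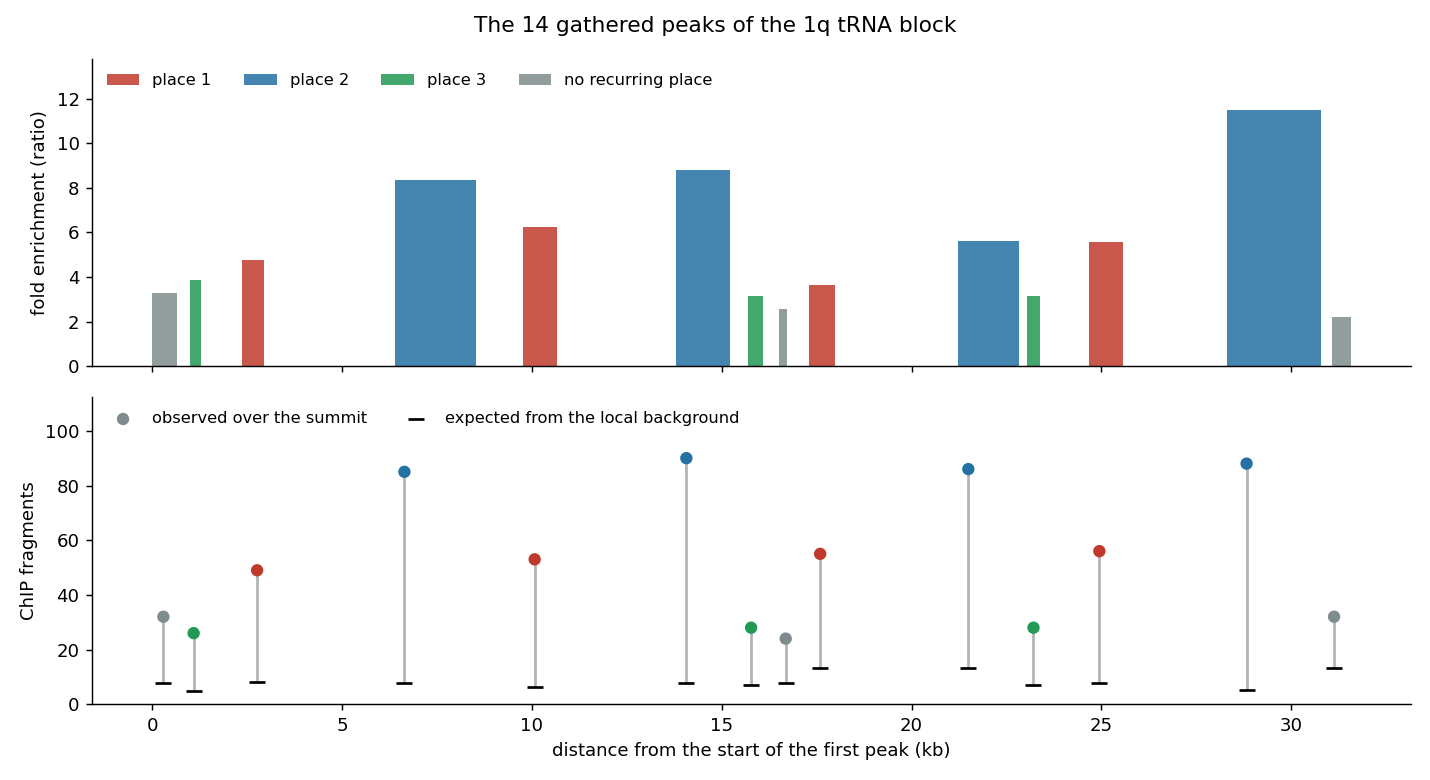
Upper panel, fold enrichment of each of the 14 gathered 1q tRNA peaks as a bar as wide as the peak, against distance in kb from the start of the first peak. Lower panel, ChIP fragments over each summit (points) and those expected from the local background (dashes). The 4 peaks at place 2 stand at 85 to 90 fragments, those at place 1 at 49 to 56 and those at place 3 at 26 to 28.

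The distances between these places were set beside the distances between tRNA promoter words in GRCh38, a comparison chosen after the peaks were seen. The 7-letter word GGTTCGA, the core of the B box that TFIIIC binds, was searched on both strands between CFAP126 and FCGR2A. It occurred 27 times there. Of 1658 stretches of chromosome 1 of the same length, 75.8% held the word at least once, the median held 1, and 2, of which 1 overlaps this block, held 27 or more. The stretch was chosen for its tRNA genes, so a high count of the word was fixed beforehand and says nothing of the summits. Repeats were then picked by the strand order of successive words and a short span of the first 4. Their layout of a group and a lone word was thus set by the search, though not its exact distances. In the 3 successive repeats so picked, the group of 4 words spanned 1769 to 1770 bp. The lone word lay 3483 to 3534 bp after the first of the group, and the next group 3877 to 3897 bp after the lone word. Words outside these repeats were not described. In the ChIP list, summits at place 1 followed those at place 2 by 3430, 3524 and 3451 bp, and the next summit at place 2 followed after 3877 to 3995 bp. The weak summits at place 3 lay 1706 and 1716 bp after one at place 2, where the fourth word of the group lies 1769 or 1770 bp after the first. These distances were thus close to those between the first, the fourth and the lone word. The distances between places 2 and 1 add up to a repeat, as those of the words do, so they are not separate matches. Which words were set beside which places was chosen with the summits known. No place answered the other words of the group, and 3 summits of the block lay at no recurring place. Repeats 2 and 5 had a summit at place 2 but none at place 3. The words are matches of letters and not measured binding sites, and the builds were not aligned.

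**Figure D4:**
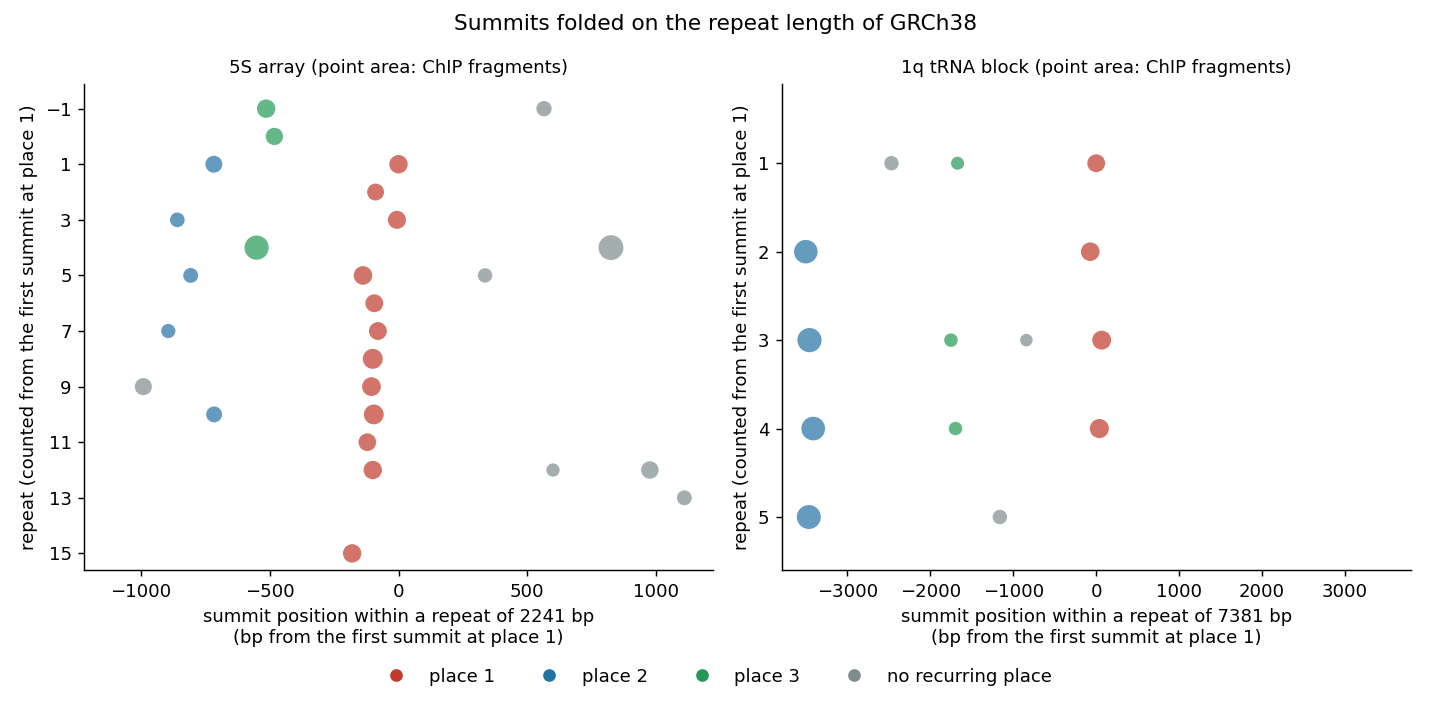
Each summit of the 5S core (left, repeat of 2241 bp) and of the 1q tRNA block (right, repeat of 7381 bp) by its position within the repeat in bp (x) and the number of the repeat (y), with point area in proportion to ChIP fragments. At place 1 of the 5S core 12 summits line up within 180 bp, and at place 2 of the 1q block 4 line up within 89 bp.

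The 3 clusters on 6p differed from both chromosome 1 arrays. Their 42 peaks had a median fold of 3.55 (interquartile range 3.06 to 4.11), a median width of 288 bp and a median of 18 fragments, all below the whole list. The background was close to the genome-wide level (median 1.03), and it was raised at 2 of 42 peaks. None was wider than 1000 bp, where 5.48% of the whole list was. On the 5S array 7 of 28 peaks and on 1q 4 of 16 exceeded that width. The median distance between neighbouring summits was 7276 bp on 6p-a, 14484 bp on 6p-b and 27444 bp on 6p-c, against 28359 bp in the whole list. Members of the 6p windows thus had lower medians of width and fragments than both the chromosome 1 arrays and the whole list. They were mostly farther apart than those of the chromosome 1 arrays, though not than the whole list. On 6p-a, 6 peaks lay in a row at chr6:26311265-26331772, each within 12.5 kb of the next. Summits of the 6p windows were not folded on a repeat.

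Single peaks of the 6p clusters still stood out from their neighbours. On 6p-b the highest was at chr6:27516180-27516544, with a fold of 7.56 and 39 fragments. On 6p-a it was the first of the window, at chr6:26285681-26285949, with a fold of 6.11 and 31 fragments. On 6p-c it was the last, at chr6:28949289-28950098, with a fold of 5.27 and 29 fragments. The lowest folds were 2.49 on both 6p-a and 6p-b and 2.54 on 6p-c, at 17, 17 and 12 fragments. All 3 clusters thus covered a similar range. The 17p cluster held 3 peaks, with folds of 4.91, 3.38 and 5.89 and 41, 24 and 33 fragments. Its peaks at chr17:8089320-8091128 and chr17:8124576-8125730 were wide (1809 and 1155 bp), and only the first had a raised background (2.18). With 3 peaks, no distribution can be given for 17p.

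Peaks were far denser in the chromosome 1 windows than in the 500 kb on either side, and the 6p windows differed among themselves. The 5S window held 187 peaks per Mb (95% Poisson interval 124 to 270) and its flanks 7 (2.81 to 14.4). The 1q window held 178 per Mb (102 to 289) and its flanks 10.0 (4.8 to 18.4). The windows were chosen with this list known, so their density is a description. On 6p-a the window held 23.9 per Mb (12.7 to 40.8) and its flanks 25 (15.5 to 38.2), and on 6p-b these were 31.4 (18.9 to 49.0) and 28.6 (18.3 to 42.5). On 6p-c the window held 18.2 per Mb (8.72 to 33.4) and its flanks, with 2 peaks, 2 per Mb (0.242 to 7.22). The intervals of window and flanks thus overlapped on 6p-a and 6p-b and not on 6p-c. The 17p window held 42.9 per Mb (8.84 to 125) and its flanks 23.

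Fold enrichment did not follow density. The 7 flank peaks of the 5S array had a median fold of 3.56, close to the 3.45 of the array, but a median width of 276 bp against 726 bp and a median background of 1.00 against 3.84. The 10 flank peaks of 1q had a median fold of 4.75, above the 4.20 of the window, at a background of 1.00 against 2.73. On 6p the flank peaks had a median fold of 4.29 (interquartile range 3.70 to 5.84) and a median width of 498 bp, above the 3.55 and 288 bp of the windows, at a similar background (1.14). Around 17p the flank peaks were lower, with a median of 3.35 over 23 peaks against 4.91 over 3, and with flanks of 1 Mb the 5S flank median (3.42) also lay just below that of the array. Relative to their own flanks, then, the 5S and 1q peaks were wider and lay over more background, and the pooled 6p peaks were narrower and lower, except that 6p-c peaks were wider than their 2 flank peaks (medians 356 and 238 bp).

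Strong peaks lay just outside some of the 6p windows and count among their flanks. The highest peak near an edge lay 0.851 kb beyond the end of 6p-b, at chr6:27775334-27776303, with a fold of 15.0, whereas the last member inside, 15.835 kb before that edge, had a fold of 4.29. The last peak before 6p-a, 11.875 kb outside, had a fold of 9.35, against 6.11 for the first member inside. On 6p-c the last member lay 0.557 kb inside the edge and the next peak 808.6 kb beyond it. The 5S and 1q windows were less exposed: their first and last members lay 5.654 to 9.515 kb inside, and the nearest outside peaks, 50.177 kb or more away, had folds of 3.02 to 4.84.

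The q-value was 0.05 or lower at 47 of the 89 members (52.8%, 95% Wilson interval 42.5 to 62.8%), against 58.5% of the whole list. The share was 18 of 28 (64.3%) on the 5S array and 12 of 16 (75%) on 1q, both near the list's share within their intervals (45.8 to 79.3% and 50.5 to 89.8%). It was 15 of 42 (35.7%, 23 to 50.8%) on 6p, below the list's share and below the 28 of 39 (71.8%, 56.2 to 83.5%) in the 6p flanks. By cluster, it was 6 of 13 on 6p-a, 7 of 19 on 6p-b, 2 of 10 on 6p-c and 2 of 3 on 17p. A q-value of 1 was listed for 2 of 28 peaks of the 5S array and 9 of 61 of the tRNA clusters, against 1963 of the 13808 in the list. Most 6p members thus passed the authors' p-value threshold but not a q-value of 0.05.

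**Figure D5:**
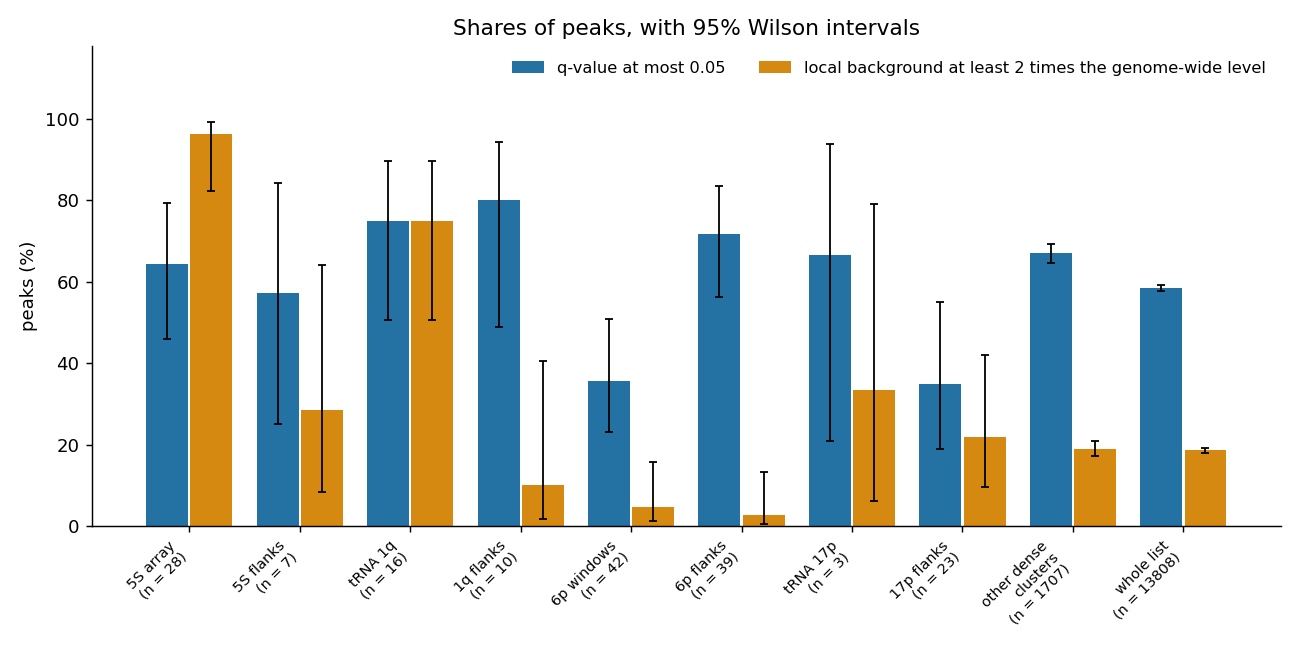
Share of peaks, in %, with a q-value of at most 0.05 (blue) and with a raised local background (orange, 2 times the genome-wide level or more), with 95% Wilson intervals, in the arrays, their flanks, dense clusters elsewhere and the whole list. The background share is 96.4% on the 5S array and 75% on 1q, and at most 33.3% in every other set.

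Raised background was not a mark of dense peaks in general. Clusters elsewhere in the list with at least 5 peaks, at gaps of up to 12.5 kb, held 1707 peaks, of which 18.9% had a raised background, with a median fold of 4.46 and a median width of 441 bp. The 5S core and the 1q block thus differed from other dense clusters in background (100% and 85.7% raised) and width (medians 738 and 671 bp), while their median folds (3.41 and 4.31) were lower. Within the 5S core, Spearman's rho of fold with background was −0.52 and with fragments 0.48 (27 peaks). In the 1q block these were −0.11 and 0.84 (14 peaks), and in the whole list −0.21 and 0.57. These correlations are across peaks of 1 library, which share their depth and their repeats, and fold itself is made from both other quantities.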

How the data were processed

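Per the labels and the study's methods, reads were mapped to hg19 (GRCh37) with Bowtie2, uniquely mapped reads were kept and peaks were called with MACS2 at a p-value of at most 0.01. The deposited list gives, for each peak, the fold enrichment (a ratio, each side with a pseudocount of 1), the −log10 of the p-value and of the q-value, a score, which was used only to check the format, and the summit offset. No count table was used. ChIP fragments over the summit and the expected background were rebuilt from the fold and the p-value. MACS2 makes both from the same pair of quantities. Only whole fragment numbers were searched, with a scale of 0.381 and 1.10 scaled fragments as the genome-wide level. Over all 13808 peaks, rebuilt and deposited −log10 p differed by at most 0.00182. No background below the genome-wide level was allowed, so a value of 1.00 is a floor. A background of a few times this level rests on few control fragments, and the intervals do not cover that counting error. The control is not named. On 3 simulated lists made with the same formula (at least 2445 peaks each), 100% of fragment numbers were recovered. Total depth was not analysed here.

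Members were peaks whose summit lay in the 6 windows. The windows, members and lists were chosen with earlier results of these data known. Flanks were 500 kb on each side, without other windows. Recurring places were found by folding summits on the repeat length of GRCh38 and taking the position with most summits within 100 bp, then the next, down to 3 summits. Peaks named by position include the highest of each array. On the 5S array the next highest, the lowest, the widest and the one with most fragments were named as well. The lowest peaks of 1q and 6p are given by fold only. With 1 library, no test between conditions was made, intervals (Poisson and Wilson, 95%) cover counting error only. Coordinates are GRCh37, counted from 1. The reference was GRCh38 (GENCODE v44 and RefSeq), used for gene order, likeness of copies and distances, never joined to a peak. The sequences of the 5S genes are not reported here. The planned list of genes for RNA polymerase III and its factors needs a GRCh37 annotation and was not analysed here. Alternatives were stricter q-values, any overlap with the window, other flanks and peak centres. Chosen after seeing the data were other half-widths of a place, leaving out the 5S peak apart from the others and leaving out 1q. Scripts ran under Python 3.11.15 with pandas 2.3.3, numpy 2.4.6 and scipy 1.17.1, and figures were drawn with matplotlib 3.10.9.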

Additional observations from a re-analysis of the deposited data

How the results depend on the processing

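With flanks of 1 Mb, the 5S flank median fold was 3.42, below the 3.45 of the array, where flanks of 500 kb gave 3.56. The q-value set how many members there were: at most 0.05 left 18 peaks on the 5S array and 29 on the tRNA clusters, and at most 0.01 left 16 and 17. Because stricter lists drop weak peaks, the median fold of the tRNA clusters rose from 3.59 to 4.64 and 5.58 and their median width from 320 to 593 and 852 bp, and at 0.01 their median background rose from 1.14 to 1.83 and the 5S median fold from 3.45 to 4.12. The median fold of the tRNA flanks went to 4.93 at 0.05. Median summit spacing on the 5S array went from 1376 to 2236 bp at 0.05. Chosen after seeing the data, a half-width of 50 bp kept 9 of the 12 summits at the first 5S place and 150 bp kept 12. Without 1q, the tRNA medians were 3.56 for fold, 294 bp for width and 1.05 for background. Depth limits single peaks: 17 fragments have a 95% Poisson interval of 9.90 to 27.2. No paired analysis was possible because there was 1 library.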
